A study of Papilio xuthus with 16 samples.

Results

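In epidermis of larval Papilio xuthus, a swallowtail butterfly, 106 of 3272 sequences (3.24%) passed a rule for a peak at head capsule slippage (HCS). The rule had to be met in both the third and the fourth molt. The 3272 sequences analysed here are those whose probes carry an AK identifier. Without the rule's limits, 477 of them (14.6%) had their highest signal at HCS in both molts. HCS is the moment at which the old head capsule slides forward off the head, and it is the outward sign by which a larval molt is timed. The members were selected on their signal. For each sequence, the probes and both colour channels were averaged per stage. A gene was kept when its mean at 0 h after HCS of the third molt and its mean at 1 h after HCS of the fourth molt both exceeded 500 and were at least 2-fold above every other stage of the same instar. In addition, no probe was allowed to differ over 2-fold between the 2 channels in the mean over an instar. Genes named as E75, cuticular, takeout, osiris or ribosomal were left out. The names used here cover 401 of the 3272 sequences, so genes of these families without a name may remain. Because the stage means chose the members, the peak itself is described here and was not tested.

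At a molt, a pulse of ecdysteroid hormone makes the epidermis detach from the old cuticle, a step called apolysis. The epidermal cells then secrete molting fluid, whose chitinases and proteases digest the old cuticle from below, while a new cuticle is laid down on their apical surface. Proteins with a zona pellucida (ZP) domain form part of the apical matrix that shapes the surface of an insect epidermal cell.

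The samples were the channels of 16 arrays with 2 colours, with 1 array per stage and comparison. In the third instar, which wears the mimetic pattern, white epidermis (Cy3; abdominal segments 2 to 4) was hybridized against black epidermis (Cy5; abdominal segments 4 and 5) at intermolt (day 2) and at 0, 4, 8, 11 and 16 h after HCS, on 6 arrays. In the fourth instar, dissected for the cryptic pattern, green thorax (Cy3; thoracic segment 2) was hybridized against eyespot (Cy5; thoracic segment 3), and green abdomen (Cy3; abdominal segments 3 and 4) against the V-shaped marking (Cy5; abdominal segments 4 and 5), each at intermolt (day 2) and at 1, 4, 10 and 13 h, on 5 and 5 arrays. Per the study, the green pattern and the eyespot belong to the final instar, so the fourth-instar regions are named for the coming pattern. The titles of the fourth-instar arrays call the pattern mimetic, whereas their source and tissue labels call it cryptic, and the latter was used. The labels give no treatment, and the larvae came from suppliers, another laboratory and the field. The removal of muscle and fat body is stated for the integument of the study's cDNA library, and the number of larvae behind each array is not given in the sources used here. There was no repeat of any stage and no dye swap. Values are processed signal intensities, which have no unit and are not compared between genes.

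The 75th percentile of the signal lay between 2100 and 4390 over the 32 samples, and was highest at the peak stage in each series of arrays (3560 and 3580 in the mimetic channels at 0 h, 4390 and 4130 on the eyespot array and 3348 and 3258 on the V-shaped array at 1 h). The main values are not scaled for it. Of the probes, 77.3% to 88.0% were well above background. Both peak stages were hybridized on slide 2, together with intermolt of both instars and with 4 h and 16 h of the third instar, and the remaining stages were on slide 1. The array of the V-shaped marking at 1 h stood apart. In the corner of it with the highest row and column numbers, the median green background was 86, against 51 elsewhere on that array and 44 to 55 in the same corner of the other arrays. Of the 276 spots of P. xuthus probes that the scanner software marked as outliers on the 16 arrays, 136 lay there. The corner holds 760 spots of P. xuthus probes (9.34%), among them 30 probes of 28 members, and results that rest on it are given with and without these spots. Without them the rule found 107 genes, which included all 106 members. The summed signal of 7 muscle markers was 580154 at 0 h, within 580154 to 1059130 over the third instar, and 286797 at 1 h, the lowest of the fourth instar (up to 553203), and all 7 were at their highest at another stage in both instars. The summed signal of 6 epidermal markers was 57976 at 0 h (13930 to 336107 over the third instar). It was 110493 at 1 h, the lowest of the fourth instar (up to 434668). Of the 6, only dusky-like (Px-0137) was highest at HCS in both instars, with 33520 and 58657 of these sums. The others were highest at other stages, so the sum was not read as an amount of epidermis. The summed signal of 3 fat body or haemocyte markers was 40309 at 0 h (15143 to 48625) and 31745 at 1 h (8645 to 112147). The 3 differed. Peroxidase (Px-0322) was highest at HCS in both instars, with 11233 at 0 h against 8745 at intermolt and 142 at 4 h. It had 3649 at 1 h against 334 at intermolt and 90.9 at 4 h. Larval serum protein 1 gamma was highest at intermolt in both, with 1630 against 126 at 0 h and 87788 against 1196 at 1 h. Collagen type IV had 28950 at 0 h against 48525 at 11 h, and was highest at 1 h in the fourth instar (26900 against 25856 at 4 h). No list of markers was at background, and the part of other tissues in the results was not tested. In bulk epidermis, fewer cells that express a gene and less RNA per cell cannot be told apart.

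The 106 members were measured by 306 probes, 1 to 11 per gene with a median of 2, and 13 members had a single probe. The part of the study's name tables used here gives a gene number to 401 of the 3272 sequences. Of the members, 22 have a number there, and the other 84 are known here by their sequence identifier alone. None of the members' identifiers occurs in the RefSeq gene table used here. Sequences and names were not compared with it, so no chromosomal position is given. None of the members' spots was saturated.

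The peak stood far above most other stages. In the third instar the signal at 0 h was 2.02- to 156-fold above the next highest stage, with a median of 4.04-fold. In the fourth instar the signal at 1 h was 2.03- to 564-fold above the next highest stage, with a median of 7.74-fold, and 84 of the 106 members had the larger fold in the fourth instar. At least 10-fold was reached by 18 members in the third and 44 in the fourth instar, with 16 in both, and 32 members were under 3-fold in the smaller of their folds. The stages differ between the instars (0 h against 1 h, and 5 against 4 other stages), so the folds are set side by side only. With every channel scaled to a common 75th percentile the median folds were 3.62 and 5.30, and with normexp background correction, which adds an offset of 50 to every signal, they were 4.13 and 5.47. At least 2-fold in both instars remained 91 of the 106 members with the scaling (lowest 1.30) and 96 with normexp (lowest 1.39). In each instar 1 member had its next highest stage not well above background, so that its fold there is a bound. Over the stages on the same slide as the peak alone, the median fold was 4.25 over 3 stages of the third instar, and 49.97 over intermolt, the only such stage of the fourth.

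**Figure D1:**
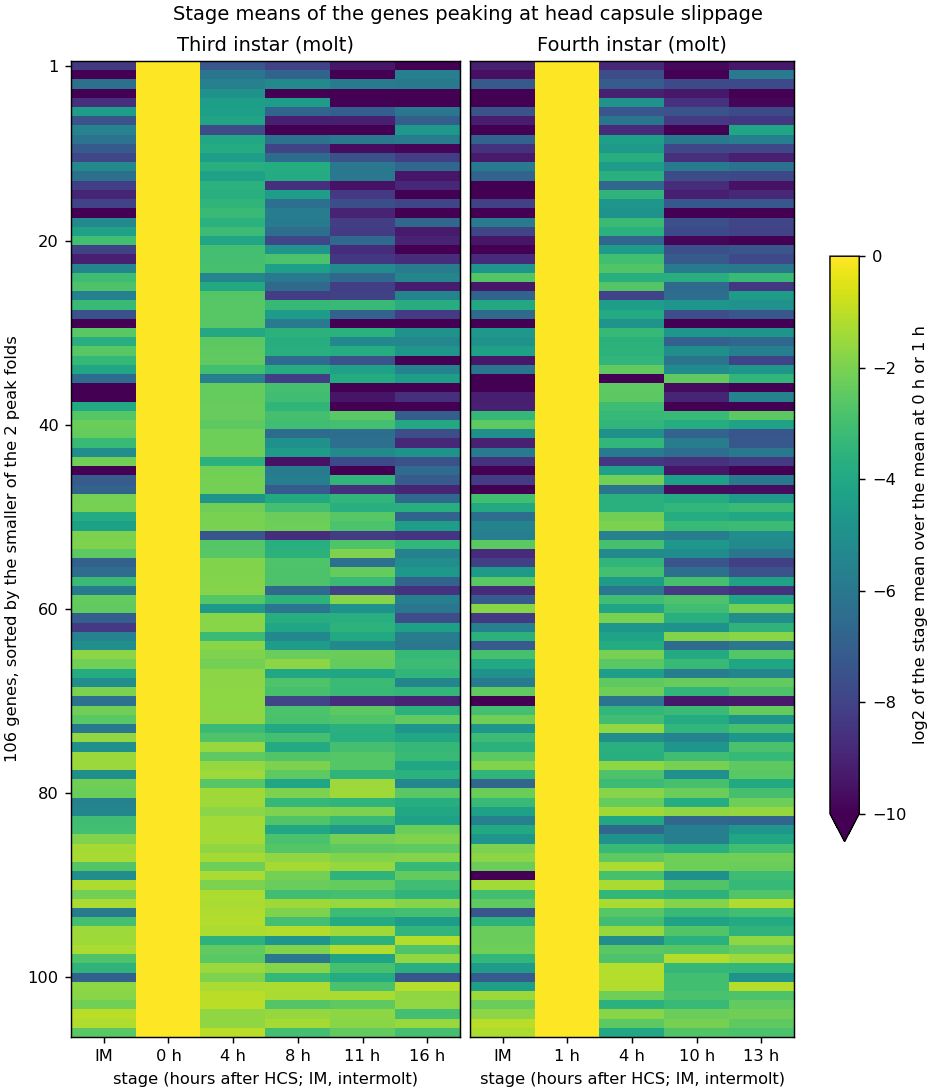
Stage means of the 106 members (rows) as log2 of the stage mean over the peak mean at 0 h or 1 h (colour), at the stages of the third instar on the left and of the fourth instar on the right. Yellow marks the peak by which the genes were chosen, and the columns beside it show a median of 19.7% of the peak at 4 h of the third molt and 8.80% at 4 h of the fourth.

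The next highest stage was most often 4 h after HCS, in 69 members in the third instar and in 63 in the fourth. It was intermolt in 21 and 19 members. In the third instar 6 members had it at 8 h, 5 at 11 h and 5 at 16 h, and in the fourth instar 6 at 10 h and 18 at 13 h. The 4 h signal was at a median of 19.7% of the peak in the third molt and 8.80% in the fourth. At intermolt the medians were 6.96% and 2.00%, and at the last stage 2.36% (16 h) and 3.64% (13 h). At these other stages between 2 and 23 members in the third and between 1 and 22 in the fourth instar were not well above background.

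The corner of the V-shaped array bears on the level at 1 h. AK404617 and AK404418 have their single probe in it. AK404617 had 13800 in thorax and 17400 in eyespot, but 120 in abdomen and 214 in the V-shaped marking, and AK404418 had 2120, 1540, 14.5 and 6.50. With the thorax and eyespot samples alone at 1 h their folds were 4.27 and 9.10, against 2.16 and 4.58 over all regions at 1 h. AK403667, with 1 of 3 probes in the corner, had folds of 11.5 without it and 6.91 with it. These members are named because of the corner, after their values were seen.

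The level at the peak was of similar height in the 2 molts. It ranged from 532 to 203280 (median 7418) at 0 h and from 598 to 190680 (median 6794) at 1 h. The ratio of the fourth to the third peak had a median of 1.05, against 0.963 over the 1858 sequences with a signal over 500 at both stages, and 94 of the 106 members lay within 2-fold. Of the others, 8 were over 2-fold higher in the fourth molt, up to 4.66-fold, and 4 were over 2-fold lower, down to 0.217. How many of the 1858 sequences lay within 2-fold was not counted.

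**Figure D2:**
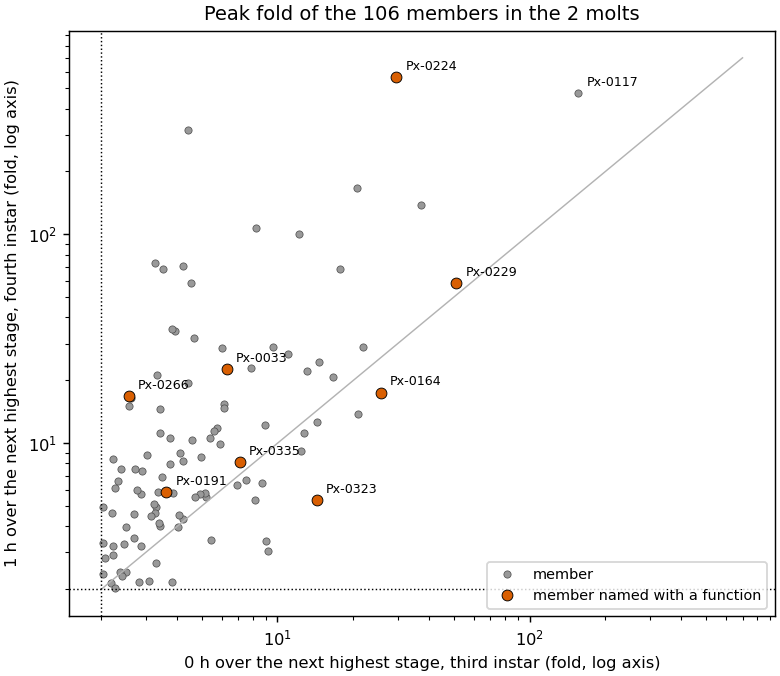
Signal at the peak over that of the next highest stage in the third instar (x axis, 0 h) and in the fourth instar (y axis, 1 h), 1 point per member, on log axes. Dotted lines mark the 2-fold limit of the selection and the grey line equal folds, and 84 of the 106 points lie above it.

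Of the enzymes of molting fluid, 2 chitinases were members. Chitinase 5 (Px-0229, AK402739), the main chitinase of insect molting fluid, had a signal of 12787 in white and 13440 in black epidermis at 0 h. In the other 10 samples of the third instar it ranged from 5.75 to 325, with a median of 119. At 1 h it was 23937 in thorax, 24000 in eyespot, 13230 in abdomen and 15663 in the V-shaped marking, and the other 16 samples of the fourth instar ranged from 9.04 to 484 (median 35.3). The peak samples did not overlap the others in either instar, which the selection makes likely for this gene and those below. The stage means differed 51.3-fold against 16 h (28.8 with normexp) and 58.5-fold against 13 h (35.8 with scaling).

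Chitinase 7 (Px-0164, AK401153), a chitinase with more than 1 catalytic domain, stood at 151667 in white and 86267 in black epidermis at 0 h, with 75.7 to 5253 (median 570) in the other samples. Its signal at 1 h was 98833 in thorax, 162667 in eyespot, 67100 in abdomen and 83400 in the V-shaped marking, against 10.5 to 9750 (median 170). All peak samples were above all others, with 25.7-fold to 16 h and 17.5-fold to 13 h (10.8 with scaling). The stage next below the peak was thus the latest one in both molts for both chitinases. Intermolt of the third instar (stage mean 2483) was the only other stage of chitinase 7 outside the last ones with a mean over 1000.

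Both chitinases were low in the middle of the molt and higher again at its end. The stage mean of chitinase 5 was 11.4 at 11 h and 256 at 16 h of the third molt, and 13.3 at 10 h and 328 at 13 h of the fourth. That of chitinase 7 was 79.1 and 4632, and 92.6 and 5897. Of the 106 members, 6 were at least 2-fold higher at the last stage than at the one before it in both instars. These were the chitinases, the serine protease inhibitor described below, AK402840, AK403795 and AK403431. The last 3 were chosen for this pattern after their values were seen. How many of all sequences rose in this way was not counted, and 11 h and 16 h of the third molt were on different slides. Nuclear receptors E75A and E75B, which ecdysteroid induces and which met the level and fold limits but were left out by name, had 72.3 and 69.0 at 11 h and 440 and 378 at 16 h, and 93.6 and 66.1 at 10 h and 544 and 363 at 13 h.

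Of 10 genes of chitin binding and turnover that could be paired with a probe, 3 were highest at 0 h and at 1 h, against 14.6% of all sequences (477 of 3272). The third was n-acetylglucosamine-6-phosphate deacetylase, an enzyme of aminosugar breakdown, with 2891 at 0 h and 2375 at 1 h. The obstructors, peritrophin-A proteins and chitin deacetylase 1, which bind or modify chitin in new cuticle, had their highest stages later. Obstructor-A (Px-0204) was at 3063 at 0 h and 137817 at 8 h, and at 12525 at 1 h and 166633 at 4 h.

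Of the proteases and their inhibitors, 2 of 9 paired genes were members, against 3.24% of all sequences, and these 2 were the ones that were highest at HCS in both instars, against 14.6%. The serine protease inhibitor Px-0033 (AK401042; the fly match is Serpin 100A) belongs to the serpins, which trap serine proteases. It had 86400 in white and 67667 in black epidermis at 0 h, against 199 to 17843 (median 1554) in the other samples. In the fourth instar, 1 h gave 93900 in thorax, 96667 in eyespot, 53733 in abdomen and 73733 in the V-shaped marking, against 246 to 4389 (median 843). The samples did not overlap, and the folds were 6.30 over 4 h in the third and 22.6 over 13 h in the fourth instar (14.0 with scaling).

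Oviductin (Px-0335, AK401287; the fly match CG4386 is a serine protease) reached 5040 in white and 4640 in black epidermis at 0 h, with 7.97 to 704 (median 17.3) in the others. The 1 h samples reached 3790 in thorax, 5115 in eyespot, 2350 in abdomen and 2815 in the V-shaped marking, with 5.94 to 604 (median 15.9) in the others. The samples did not overlap, and the folds were 7.09 over 8 h and 8.14 over 4 h (4.71 with normexp). At the last stages, where the chitinases were next highest, its stage means were 11.5 at 16 h and 15.9 at 13 h. Scarface, a fly regulator of epithelial signaling with a protease-like domain, was lowest at HCS, at 162 at 0 h against up to 55441 at 11 h and at 143 at 1 h against up to 50771 at 10 h.

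Of the apical matrix proteins, 3 of 8 paired genes were members, against 3.24% of all sequences. Of the 8, 5 were highest at HCS in both instars, against 14.6%. The lists hold only genes with a gene number, which 22 members and 401 of all sequences have. Dusky (Px-0224, AK402738), a ZP-domain protein that in flies shapes wing cells, had the largest fold of the fourth instar in the main values and with scaling, but not with normexp, where that of Px-0117 was larger (291 against 181). At 0 h its signal was 30900 in white and 23950 in black epidermis, against 5.46 to 1056 (median 7.56). At 1 h it was 37300 in thorax, 24850 in eyespot, 24950 in abdomen and 27150 in the V-shaped marking, against 4.84 to 81.4 (median 10.9). The next highest stage was 4 h in both molts, with a mean of 926 in the third and 50.7 in the fourth, which gave folds of 29.6 and 564 (387 with scaling).

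Px-0116 (AK401110), whose fly match neyo is another ZP-domain protein, was named as a member of this list. It stood at 45550 in white and 30350 in black epidermis at 0 h, and at 72000 in thorax, 101750 in eyespot, 37700 in abdomen and 57700 in the V-shaped marking at 1 h. The third-instar intermolt mean was 8570 and the fourth-instar one 183, so that the folds to the next highest stage were 4.43 and 316. Px-0261 (AK402745; fly match Mucin 68D), the third member of the list, had stage means of 12246 at 0 h and 19999 at 1 h, with folds of 3.42 and 11.3. Of the list's non-members, mucin related 89F (Px-0038) had the profile of a member, with 85025 at 0 h and 83159 at 1 h, and was left out because a probe differed over 2-fold between the channels. One dusky-like gene (Px-0137) had 33520 at 0 h but 24110 at 4 h, whereas it had 58657 at 1 h and 1271 at 4 h of the fourth molt.

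Glucose dehydrogenase (Px-0323, AK402758), an oxidoreductase, showed 73625 in white and 50280 in black epidermis at 0 h, against 217 to 5985 (median 1183). The fourth-molt peak showed 52780 in thorax, 41993 in eyespot, 23805 in abdomen and 31940 in the V-shaped marking at 1 h, against 12.5 to 10070 (median 1307). Its next highest stages were 11 h (mean 4320) and 10 h (mean 7022), with means of only 218 at 8 h and 25.8 at 4 h between them and the peak. The folds were 14.3 (21.8 with normexp) and 5.36 (3.11 with scaling).

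Drip protein (Px-0266, AK401236), an aquaporin that conducts water across cell membranes, was the member whose peak differed most between the molts. At 0 h it had 2004 in white and 3054 in black epidermis, against at most 998 (median 663). In the fourth molt it had 14583 in thorax, 10317 in eyespot, 11437 in abdomen and 10787 in the V-shaped marking at 1 h, against 179 to 1024 (median 396). The peak means differed 4.66-fold between the instars, while the highest values of the other samples were of like size. The folds to the next highest stage were 2.58 and 16.9 (10.6 with scaling).

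LIX1-like protein (Px-0191, AK401176), whose fly match lowfat acts with the cadherin Fat in planar polarity, kept a signal over 500 in every sample. It had 56733 in white and 83933 in black epidermis at 0 h, against 593 to 21070 (median 8428). At 1 h it had 104933 in thorax, 112567 in eyespot, 56500 in abdomen and 61850 in the V-shaped marking, against 2585 to 23330 (median 8129). The folds were 3.63 over 4 h and 5.83 over intermolt.

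A probe of this gene and one of Px-0117 are shown, because the signal of each is what the named levels rest on. They are 60 bases long, were taken from the study's probe table, and lie in the coding sequence. They are written from 5′ to 3′, with the first whole codon of the reading frame in capitals. Which of a gene's numbered spots each probe stands for is not known.
Px-0191: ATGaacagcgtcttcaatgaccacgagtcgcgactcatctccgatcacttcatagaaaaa
Px-0117: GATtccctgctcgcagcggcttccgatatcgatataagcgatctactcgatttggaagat
The guanine and cytosine share of these probes was 45% and 48.3%.

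**Figure D3:**
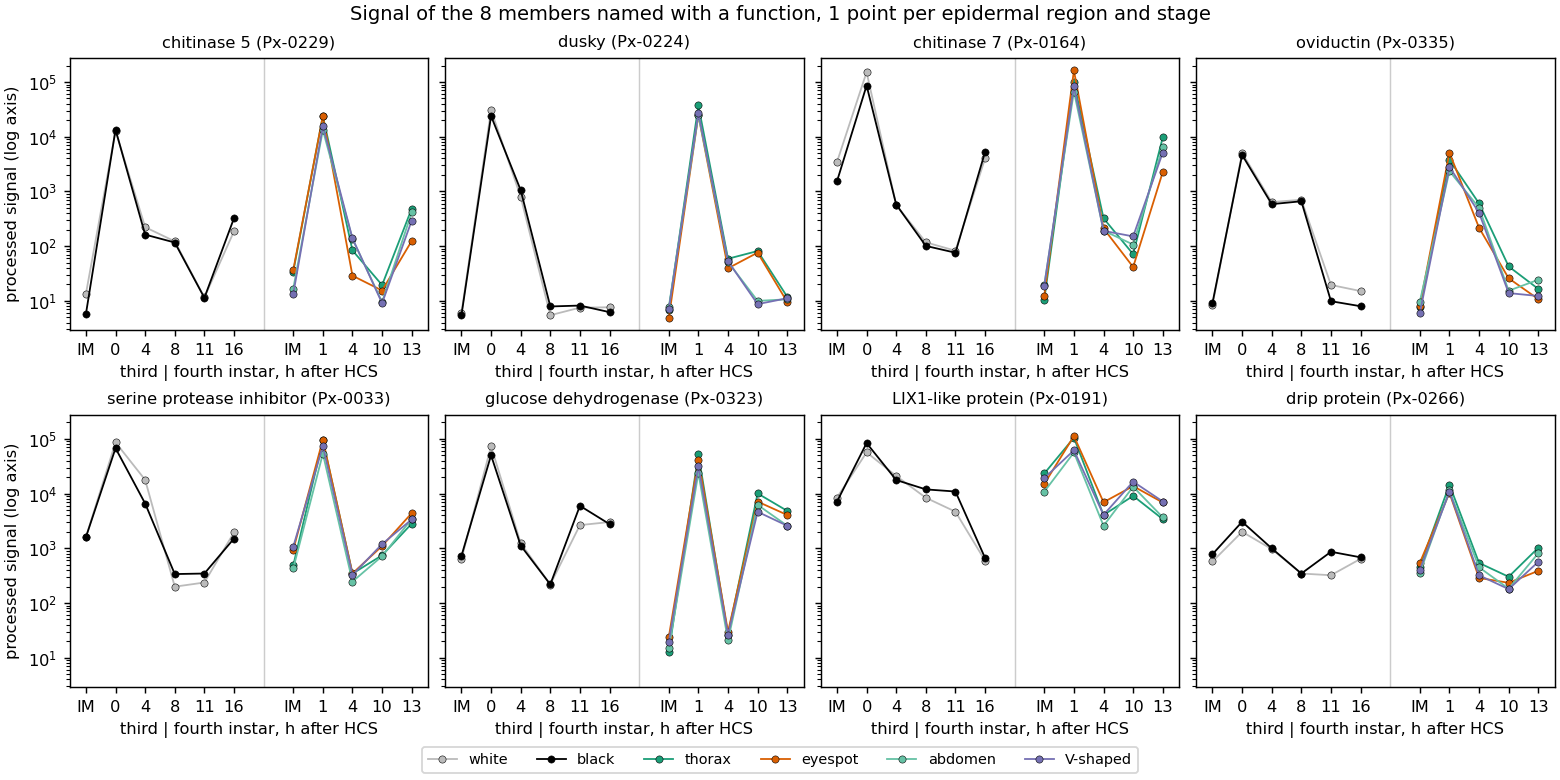
Processed signal (log axis) of the 8 members named with a function, at the stages of the third instar (left of each panel) and of the fourth (right), 1 point per epidermal region. In every panel the points at 0 h and 1 h lie above all others of the instar, which the selection makes likely. In the chitinase panels the last stage has the next highest mean.

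Genes without a function in the names used here were also among the largest folds. Px-0117 (AK401111), described as an unknown secreted protein and measured by 7 probes, had the largest fold of the members in the third instar. It had 81486 in white and 56000 in black epidermis at 0 h, against 60.7 to 550 (median 216). At 1 h it had 74800 in thorax, 80829 in eyespot, 31600 in abdomen and 45450 in the V-shaped marking, against 54.5 to 172 (median 95.2). The peak means were 156-fold above 4 h in the third and 474-fold above 4 h in the fourth instar, the latter 506-fold without the corner spots, which held 1 of its probes, and 291-fold with normexp.

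AK402955 had a 4.13-fold higher peak mean in the fourth than in the third instar. Its 3 probes had 723 in white and 696 in black epidermis at 0 h, and 4773 in thorax, 3153 in eyespot, 2117 in abdomen and 1682 in the V-shaped marking at 1 h. In the third instar no other stage was well above background, so its peak is given as at least 20.4-fold higher (the peak mean over the lowest signal of probes well above background, where that exceeds the gene's own). In the fourth instar only some spots of the other stages were well above background, and the same bound was at least 58.4-fold. With normexp the folds were 5.54 and 15.9, below both bounds.

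The other genes named by their folds had no function in the names used here. Their next highest stage was 4 h in both instars except where stated. AK404220 had 12311 in white and 13961 in black epidermis at 0 h and 11963 (abdomen) to 27735 (eyespot) at 1 h, with folds of 20.7 and 166 (101 with scaling and 71.6 with normexp). AK401351 had 16594 and 15050 at 0 h and 17412 (abdomen) to 29738 (eyespot) at 1 h, with folds of 21.8 and 28.8. Px-0209 (AK402736), of low homology to known proteins, had 16203 and 10539 at 0 h and 15028 (abdomen; 10636 without the corner spots) to 21667 (eyespot) at 1 h, with folds of 20.8 and 13.8. In all 3 the abdomen was the lowest and the eyespot the highest of the 4 regions at 1 h.

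AK403815 had 4960 in white and 3620 in black epidermis at 0 h, with folds of 17.8 in the third and 68.5 in the fourth instar, the latter 84.4 without the corner spots and 18.9 with normexp. AK403182 had 8760 and 5340 at 0 h and a stage mean of 2718 at 1 h, with folds of 14.6 and 24.5. Without the corner spots its mean at 1 h was 3703 and the fold 33.4, with scaling the fold was 16.0, and with normexp it was 9.95. AK404381 had 517 and 551 at 0 h and 566 (thorax) to 854 (V-shaped marking) at 1 h, with folds of 16.6 and 20.7. With normexp these were 3.79 and 4.21, and at 4 h only some of its spots were well above background.

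AK402819 had 8954 and 6919 at 0 h, with folds of 13.1 and 22.2 (13.7 with normexp). AK402849 had 6068 and 6168 at 0 h and 3523 (abdomen) to 5045 (V-shaped marking) at 1 h, with folds of 14.4 over 8 h and 12.7. Without the corner spots the levels were 3220 and 4563 and the fold 11.7, and with normexp the fold was 7.63.

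Further members, chosen after their values were seen, are described as secreted proteins of unknown function. Px-0308 (AK401266) had 195120 in white and 211440 in black epidermis at 0 h and 127500 (abdomen) to 235000 (eyespot) at 1 h, and folds of 3.73 and 7.97. Px-0007 (AK401027) had 176491 and 128258 at 0 h and 111873 (abdomen) to 213882 (eyespot) at 1 h, and folds of 12.2 and 101. Its stage mean at 4 h was 12487 in the third and 1554 in the fourth molt.

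Px-0179 (AK401166) had stage means of 30784 at 0 h and 45432 at 1 h and folds of 4.42 and 19.5. Px-0302 (AK401261), whose fly match Pherokine 3 is of the chemosensory protein family, had 15350 and 20356 and folds of 7.88 and 23.0. Px-0337 (AK402761, fly match ectodermal), named a hypothetical protein and chosen likewise, had 10870 and 10593 and folds of 11.0 and 26.9. A pair of probes of Px-0007 and a pair of Px-0179 are shown because their probes stand for secreted proteins of unknown function with at least 4-fold in both molts, with capitals as above.
Px-0007 first probe: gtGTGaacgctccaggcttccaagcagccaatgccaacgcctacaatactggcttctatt
Px-0007 second probe: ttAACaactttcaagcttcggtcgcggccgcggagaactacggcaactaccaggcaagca
Px-0179 first probe: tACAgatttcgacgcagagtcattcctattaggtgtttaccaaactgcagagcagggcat
Px-0179 second probe: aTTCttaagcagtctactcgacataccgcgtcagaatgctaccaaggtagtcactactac

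Close to the limit of the selection, AK403562 (2.26- and 2.03-fold) and AK403262 (2.02- and 2.38-fold) were just inside it. AK404338 (2.32- and 1.97-fold) and Px-0410 (AK401335), a glutathione S transferase, a detoxifying enzyme (1.96- and 4.06-fold), were just outside.

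Among the regulators of the molt, the selection itself took out E75 by name. Of 15 paired genes of the ecdysteroid cascade and juvenile hormone response, 4 were highest at HCS in both instars, against 14.6% of all sequences, and 0 were members, E75A and E75B having met the level and fold limits. The 4 were E75A (1665 at 0 h and 2001 at 1 h), E75B (959 and 1189), E75D (457 and 540) and hormone receptor 4 (157 and 187), of which the last 2 were under 500 at 0 h. The study describes a region common to E75A and E75B, so the E75 forms do not count as independent genes. Hormone receptor 3 had 513 at 0 h and 853 at 1 h but was highest at 8 h (662) and at 4 h (915). Ftz transcription factor 1, which in flies is expressed after the hormone declines, was at 12.1 at 0 h and 589 at 11 h, and at 17.7 at 1 h and 621 at 10 h.

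Of 11 paired genes of the secretory pathway, 6 were highest at HCS in both instars, against 14.6% of all sequences, and 0 were members, against 3.24%, since their levels at the other stages were within 2-fold in at least 1 instar. Heat shock protein cognate 3, the chaperone of the endoplasmic reticulum, was at 138750 at 0 h against 42625 at intermolt and 42050 at 4 h, and at 140888 at 1 h against 96650 at intermolt. Sec61beta, a subunit of the channel through which secreted proteins enter the reticulum, was at 19870 at 0 h against 9068 at 4 h, and at 28193 at 1 h against 15525 at 4 h. Of 18 paired genes of patterning and signaling, 1 was highest at HCS in both instars, and 0 were members, with the same shares over all sequences. No enrichment was tested for any list, and every list holds only genes with a gene number, unlike the set of all sequences.

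Between the regions of one array, few members differed over 2-fold at the peak, and few of all sequences did. The selection limited the difference between channels in the mean over an instar to 2-fold, so these ratios are a description. At 0 h the log2 ratio of black over white had a median of 0.03 and ranged from -1.003 to 1.01. It was above 0 in 57 of 106 members, against 48.7% of the 1932 sequences over 500 in both channels, and 2 members lay beyond 1 in either direction, against 1.71%.

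At 1 h the log2 ratio of eyespot over thorax had a median of 0.12 and was above 0 in 72 members, against 50.4% of 1956 sequences. Beyond 1 lay 4 members, against 4.29%, of which AK402845, AK404165 and AK401988 were higher in the eyespot and AK404708 was lower, at -1.86. AK402845 had 58733 in eyespot and 29300 in thorax, and AK404708 had the lowest ratio of all members on any peak array. These genes were named after their values were seen.

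At 1 h the log2 ratio of the V-shaped marking over abdomen had a median of 0.23 and was above 0 in 90 of 106 members, against 49.2% of 1880 sequences. Without the corner spots it had a median of 0.21 and was above 0 in 89 of 104 members, against 49.8%. The only member beyond 1, against 6.06%, was AK404418 (-1.16), which has its single probe in the corner, and without the corner spots 0 members were beyond 1 and the range was -0.33 to 0.89. Each of these counts comes from 1 array without a dye swap, so marking and dye cannot be told apart.

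Thorax and abdomen were compared in the fourth instar. The selection set no limit on this difference, but it was not independent of it. Its mean at 1 h covered the same arrays, and the thoracic array had the higher 75th percentile there. On the eyespot arrays alone 104 of the members met the rule, and on the V-shaped arrays alone 96. Some members may thus have entered through their thoracic values. The mean of both channels of the eyespot array (thorax and eyespot, thoracic segments) was set against that of the V-shaped array (abdomen and V-shaped marking, abdominal segments) over 5 stages, with limma and the stage as a block. Of the 8138 P. xuthus probes, 0 passed an adjusted p of 0.05 (0% called), and so did 0 of the 306 member probes. At an unadjusted p under 0.05 there were 1277 probes (15.7%), and 56 of the 306 member probes (18.3%). The members' probes had a median log2 difference of 0.29 toward the thorax, against 0.13 for all probes. With each channel scaled to the same 75th percentile these were 0.17 and 0.01. Unscaled and without the 1 h arrays they were 0.22 and 0.10.

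By gene, 96 of the 106 members were higher on the thoracic arrays on average, against 70.1% of all sequences. At all 5 stages 27 members (25.5%) were higher, against 12% of all sequences, while 0 members were lower at all 5. Without the corner spots it was 26 of the 104 members measured at every stage, against 12.5%, and with scaling 12 members, against 8.44%. The median difference was 0.53 at 1 h with the corner spots and 0.51 without, against 0.28 for all sequences in both. At intermolt it was 0.03 against -0.14, at 4 h 0.30 against 0.24, at 10 h 0.29 against 0.17 and at 13 h 0.12 against 0.09. Each stage has 1 thoracic and 1 abdominal array, and so region and array cannot be told apart within a stage. The values at 1 h also chose the members, so the difference at that stage is a description.

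**Figure D4:**
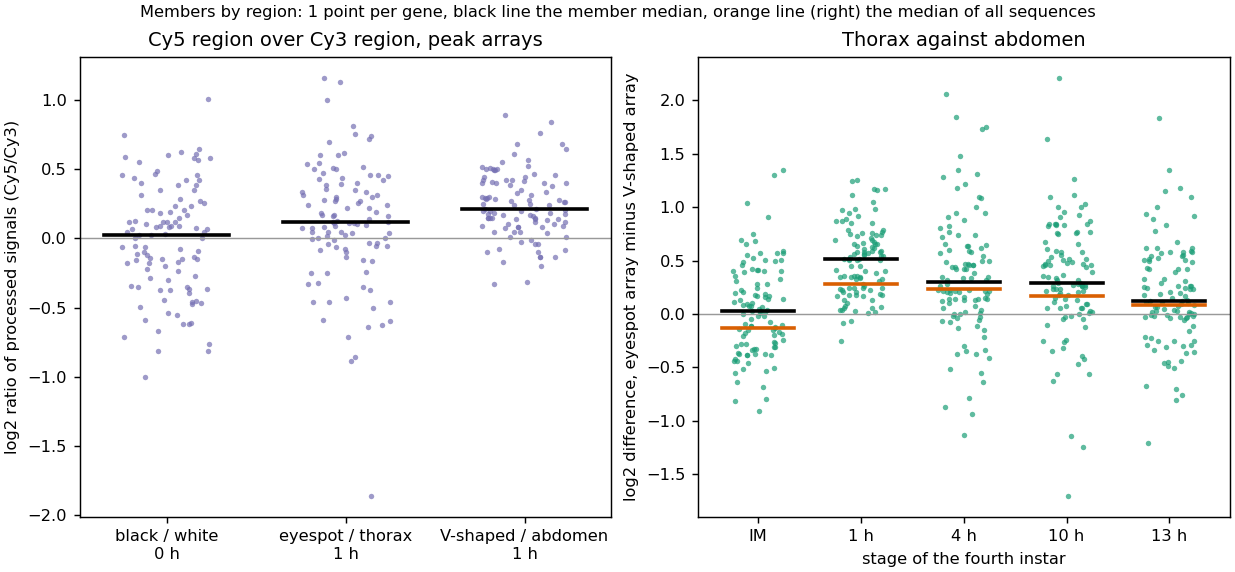
Left, log2 ratio of the Cy5 over the Cy3 region of each member on the arrays at 0 h and 1 h, and right, log2 difference between the thoracic and the abdominal array at each stage of the fourth instar (y axes), 1 point per member without the corner spots. Black lines are medians of the members (0.03, 0.12 and 0.21 on the left; 0.51 at 1 h on the right) and orange lines medians of all sequences (0.28 at 1 h).

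Among the members with the largest differences without the corner spots, named after their values were seen, AK403846 was at 0.94 ± 0.44 (SD, n = 5 stages), with 0.69 at intermolt, 0.91 at 1 h, 0.46 at 4 h, 1.64 at 10 h and 1.00 at 13 h. Px-0302 was at 0.79 ± 0.16, and Px-0116, the neyo match, at 0.68 ± 0.13 with 0.57 to 0.87 at the single stages. All of these were higher in thorax at all 5 stages, and the mean exceeded the SD over stages. When probes had to be well above background on every array of the fourth instar, 6 of 126 member probes (63 genes) were called, all higher in thorax, against 92 of 4852 probes (1.9%), of which 34 (0.701%) were higher in thorax. They belonged to AK403846, Px-0116, AK401799 and AK403019. The lowest adjusted p with this filter was 0.00986 (limma, AK403846), against 0.114 without it, and ranged from 0.00159 to 1.00 over the alternatives. Leaving out the corner spots as well gave 9 of 126 member probes, from the same 4 genes and AK402845, against 242 of 4852 (4.99%).

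The eyespot and V-shaped marking were compared by the difference of their log2 ratios to the green region, in limma on all 16 arrays. Of 8138 probes, 0 passed the adjusted p of 0.05 (0% called), and of the 306 member probes 0. At an unadjusted p under 0.05 were 441 probes (5.42%) and 15 member probes (4.90%). The median difference of the member probes was -0.10 against 0.02 for all.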

How the data were processed

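Total epidermal RNA of each region and stage was hybridized by the authors to 60-mer Agilent arrays with 2 colours. Per the file headers, Feature Extraction 9.5.3.1 wrote the array files, whereas the methods name another version and a GENESPRING normalization. The processed signals deposited by the authors are intensities on a linear scale, from which the software had subtracted background and in which it had balanced the dyes array by array. The deposited median intensities and local backgrounds are not normalized, and 0 or 1 flags mark spots well above background, saturated or outlying. The series table of log ratios was not used. No scaling between arrays was applied in the main values, and outlier spots were left out. The number of arrays limits the precision.

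Probes with an AK identifier (8138, of 3272 sequences) were used, and names came from the held parts of the study's tables. Members, lists and tests were chosen with earlier results of these data known. Genes were named when the tables gave a function, and otherwise as the 10 members with the largest smaller peak fold, with any member past an adjusted p of 0.05 and the 2 genes on each side of the 2-fold limit. Tests used limma 3.58.1 in R 4.3.3 on log2 values of all 8138 probes with Benjamini-Hochberg adjustment. For thorax against abdomen, the channels of each of the 10 fourth-instar arrays were averaged, and the spread is that between stages. Stages pair the arrays by their labels, and deviations from the group means correlated at 0.916 to 0.963 within stages. p-values measure only this spread, since no stage was repeated.

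The tests were tried on simulated data with 7962 probes. For thorax against abdomen, 37% of probes changed by a log2 of 1 and 86% of those changed by 2 were recovered, and for eyespot against V-shaped marking 57% and 85%, with 3 false calls in each. Alternatives were a common 75th percentile, normexp (offset 50) on median signals with loess and Aquantile, other fold and signal limits, single channels, arrays, slides or stages, a filter on dim probes, and the stage block. Those chosen after seeing the data kept outlier spots or left out the corner spots, alone or with that filter. Sums, medians and figures used pandas 2.3.3, numpy 2.4.6 and matplotlib 3.10.9 under Python 3.11.15.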

Additional observations from a re-analysis of the deposited data

Results flagged for a closer look

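The log2 ratios of the named members were examined over the mimetic, eyespot and V-shaped arrays in which the gene was well above background, in groups of 4 to 6 arrays. Of these 32 groups, 0 held an array whose gap to the others passed Dixon's critical value, where chance flags about 1 in 20.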

How the results depend on the processing

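The number of members was 106 and stayed within 1.5 times of it under the other settings tried, except with a 1.5-fold limit, which gave 169. It was 87 with the common 75th percentile and 100 with normexp (87 of each among the 106), 74 with a 3-fold limit, 112 and 93 with signal minimums of 250 and 1000, 110 without the channel limit, 72 when every probe had to pass, 147 over stages of the same slide, 110 and 99 on the eyespot and V-shaped arrays alone, and 98 and 113 on Cy3 and Cy5 alone. Leaving out each other stage in turn gave 106 to 139. Settings added after seeing the data, keeping outlier spots and leaving out corner spots, gave 106 and 107. Of 36 named peak folds, 9 (75th percentile), 10 (normexp) and 17 (same slide) moved by more than the spread between regions, none reversed and none went under 2-fold (lowest 2.45). Over all members, 91 (75th percentile; lowest 1.30) and 96 (normexp; lowest 1.39) were at least 2-fold in both instars. Thorax against abdomen called 0 member probes, and 6 on probes well above background (9 without the corner spots as well). It called 0 member probes without the stage as a replicate block, with either normalization, on slide 1 alone and with each stage left out, while all probes gave 0 to 3 calls under these. The eyespot and V-shaped difference called 0 in every setting, with the paired stage as a replicate block too, where 31 of 306 member probes (10.1%) and 563 of 8138 probes (6.92%) had an unadjusted p under 0.05. Signals of members not well above background bound their folds.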
